A study of Mus musculus with 12 samples.

Results

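The 39 Hox genes of the mouse were described here across single embryos of embryonic day 7.0. They were chosen by name alone, as the rows of the expression table whose gene symbol is Hox, a cluster letter from a to d and a number, which gave 39 of 55291 genes: 11 in HoxA, 10 in HoxB, 9 in HoxC and 9 in HoxD. The samples were 12 untreated wild-type C57BL/6J whole embryos, 5 female and 7 male, from 7 litters. Each library was made from 1 embryo, with an amplification kit for very small RNA amounts that is not stated to keep the strand. The study set female against male embryos and has no other group.

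Hox genes encode homeodomain transcription factors that give cells their position along the head-to-tail axis. They stand in 4 clusters, and genes that hold the same place in different clusters are paralogs and share a group number. As the embryo grows, genes at the low-numbered end of a cluster are switched on first and further forward, and those at the high-numbered end later and further back, an order called collinearity. The first Hox transcripts of the mouse embryo are known from the posterior primitive streak, the site where mesoderm leaves the epiblast, and they belong to group 1. Hoxa10 and Hoxa11 are also known for a role outside the embryo, in the uterine stroma that becomes the decidua around it.

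In units of 1000000, libraries held 83.0 to 114.4 fragments, as estimated from the normalized value of 1 fragment, which lay between 0.83 and 1.134. Markers of the labelled tissue were present, with 6 of 6 epiblast genes and 18 of 18 primitive streak genes detected in the sense used below. Maternal and other transcripts were present beside them: 15 of 15 decidual genes, 5 of 7 giant cell trophoblast genes, 5 of 5 adult blood genes and 5 of 6 leukocyte genes. The leukocyte gene that missed the rule was Ptprc, with a mean of 6.88 and values above 0 in 4 embryos. The trophoblast genes Prl3b1 and Ctsq were at 0 in all embryos. A library is a whole embryo, so fewer cells expressing a gene and less RNA of it per cell cannot be told apart. In the 18 streak genes, none of which is a Hox gene, male replicates 2, 4, 5 and 7 stood apart from the other 8 embryos. The first principal component of these genes held 80.2% of their variance, with scores of 2.69 and above in those 4 males and of -0.752 and below in the other 8. The clustering was set to give 2 sets, here and below, so their number is no result. Male replicate 7 scored 6.38 and male replicates 2, 4 and 5 scored 2.69 to 3.33. Over 12532 genes of mean level at least 100, female replicates 2 and 3 stood apart instead, with first component scores of 46.7 and 39.4 against 16.5 and below, and the 4 males had the lowest scores, from -34.2 to -16, next to male replicate 6 at -14.1. Without those 2 females the same number of Hox genes, 13, was detected and no Hox gene was called between the sexes. Because all 4 are male, their separation and sex are partly confounded, and results that rest on them are given with and without them.

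Of the 39 Hox genes, 13 were detected, meaning at least 10 normalized counts in at least 5 of the 12 embryos. That is 33.3% of the Hox genes, beside 29.8% of all genes in the table and 66.5% of the 21535 protein-coding genes. The detected genes lay on either side of groups 3 to 6. They were 5 genes of groups 1 and 2, none of the 13 genes of groups 3 to 6, and 8 of the 21 genes of groups 7 to 13. By cluster, 6 of 11 genes passed in HoxA, 2 of 10 in HoxB, 0 of 9 in HoxC and 5 of 9 in HoxD. Values above 0 occurred in at least 1 embryo for 28 genes, and 7 genes were above 0 in all 12 embryos. The other 11 genes were at 0 in every embryo, which allows up to 3 fragments per library, or 2.49 to 3.4 normalized counts: Hoxa4, Hoxb8, Hoxb13, Hoxc5, Hoxc6, Hoxc8, Hoxc10, Hoxc11, Hoxc12, Hoxd3 and Hoxd12. Just inside the rule lay Hoxa9, with a mean of 11.1 and 5 embryos at 10 or more, and Hoxd8, with 12.2 and 6 embryos. Just outside lay Hoxb7, with a mean of 10.6 and 4 such embryos, and Hoxa13, with 9.13 and 4. Under a looser rule of at least 3 fragments in 5 embryos, 16 genes passed, 2 of them in groups 3 to 6 (Hoxb3 and Hoxb4). Without the 4 males that stood apart, 10 genes met the first rule in the other 8 embryos.

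**Figure D1:**
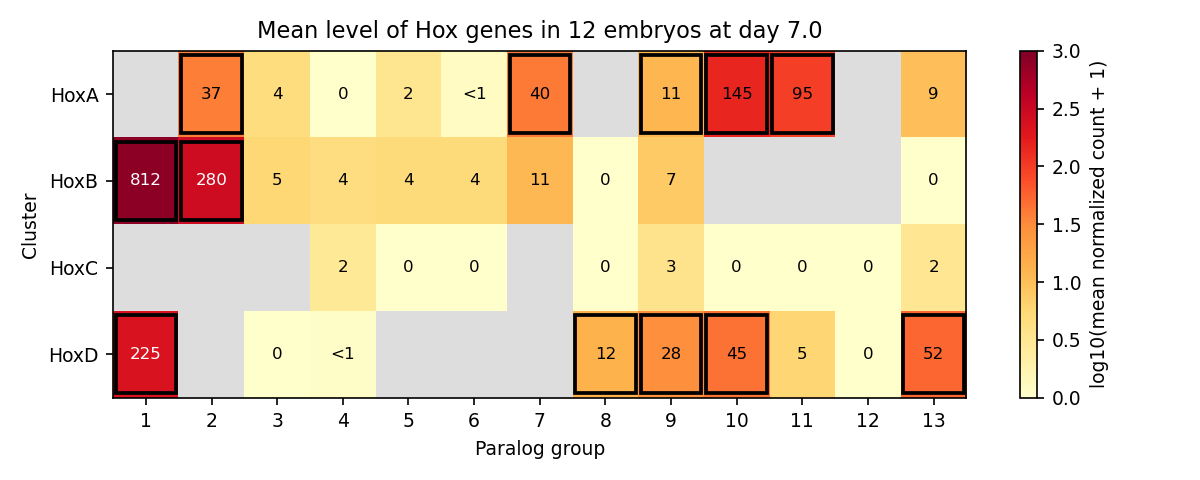
Mean normalized count over 12 embryos for Hox genes, with clusters in rows and paralog groups in columns; colour is log10(mean + 1), grey cells have no gene or no value drawn, and black frames mark detected genes. Frames cover the genes drawn in groups 1 and 2, leave groups 3 to 6 empty and return at groups 7 to 13 in HoxA and HoxD.

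The label under which these genes are grouped places them before collinear onset. The data go against it in part, since genes of groups 1 and 2 were already present, and the genes are therefore called the Hox cluster genes at day 7.0.

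Within groups 1 and 2, RefSeq promoter windows on GRCm38.p6 were at hand for Hoxb1, Hoxa2 and Hoxd1. They are shown because these genes lie at the early end of 3 clusters and because the regulation of Hoxb1 and Hoxa2 by HOX proteins paired with PBX and MEIS partners is well known in the hindbrain. Each window is the 250 bases before the RefSeq start, on the gene's own strand, at chr11:96365508-96365757 (plus strand) for Hoxb1, chr6:52164832-52165081 (minus strand) for Hoxa2 and chr2:74762730-74762979 (plus strand) for Hoxd1. Capitals mark 3 motifs searched on both strands: TGATNNAT, the joint site of PBX and HOX proteins, TGACAG, the site of MEIS proteins, and CCAAT, the site of the factor NF-Y.
Hoxb1: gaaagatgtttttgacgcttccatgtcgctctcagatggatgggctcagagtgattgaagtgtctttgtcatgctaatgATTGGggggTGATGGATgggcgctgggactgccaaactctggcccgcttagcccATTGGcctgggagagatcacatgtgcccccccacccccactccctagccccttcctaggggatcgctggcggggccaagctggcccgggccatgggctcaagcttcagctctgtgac
Hoxa2: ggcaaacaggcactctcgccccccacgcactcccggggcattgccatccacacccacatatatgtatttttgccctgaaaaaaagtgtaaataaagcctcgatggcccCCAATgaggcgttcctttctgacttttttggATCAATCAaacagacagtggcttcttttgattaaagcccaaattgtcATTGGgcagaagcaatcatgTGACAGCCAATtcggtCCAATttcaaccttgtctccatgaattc
Hoxd1: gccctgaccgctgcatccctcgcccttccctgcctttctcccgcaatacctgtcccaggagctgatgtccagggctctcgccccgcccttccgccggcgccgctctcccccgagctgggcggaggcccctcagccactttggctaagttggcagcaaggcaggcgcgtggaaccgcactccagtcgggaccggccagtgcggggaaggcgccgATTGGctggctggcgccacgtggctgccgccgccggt
The Hoxb1 window holds TGATNNAT 162 bases before the start, and the Hoxa2 window holds it on the opposite strand 111 bases before the start, with TGACAG at 44, directly followed by a CCAAT. The Hoxd1 window holds CCAAT alone among the 3 motifs, on the opposite strand at 37. Among 32841 RefSeq windows of this length, 7.69% hold TGATNNAT, 15.9% hold TGACAG and 33.9% hold CCAAT. Of 24 windows of 22 Hox genes, 4 hold TGATNNAT (Hoxa2, Hoxb1, Hoxb8 and Hoxd11), 2 hold TGACAG and 14 hold CCAAT, and Hoxb8 was at 0 in every embryo. The windows of the 11 detected Hox genes that have one held a median of 13 CG pairs and those of the 11 undetected ones 14, beside 6 over all windows. A match describes the letters and not binding.

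Hoxb1, a group 1 gene that later gives the fourth hindbrain segment its identity, was the most abundant Hox transcript by mean level. In female replicate 4, Hoxa10 was above it, at 419.4. Hoxb1 was at 312.2, 395.9, 359.9, 326.6 and 295.3 normalized counts in female replicates 1 to 5 and at 419.5, 1322, 502.3, 884.7, 1163, 212.1 and 3555 in male replicates 1 to 7. The females lay close together at 338.0 ± 40.1 (SD, n = 5), whereas the males spread over 1151 ± 1134 (SD, n = 7) and reached both below and above them. The highest male was replicate 7, and the 4 highest values of all belonged to the 4 males that stood apart in the streak genes. The 12 embryos spanned a 16.8-fold range. Litter mates differed too: from 312.2 to 1322 within litter 3, from 212.1 to 1163 within litter 6 and from 295.3 to 3555 within litter 9.

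Hoxd1, the group 1 gene of HoxD, varied less than Hoxb1. Females had 173.0, 158.2, 354.1, 314.6 and 157.1 normalized counts and males 113.3, 152.5, 190.9, 280.2, 263.9, 103.1 and 437.1, in replicate order. The sexes overlapped throughout, at 231.4 ± 95.2 (SD, n = 5) and 220.1 ± 117.7 (SD, n = 7). Male replicate 6 had the lowest Hoxb1 and Hoxd1, while male replicate 7 had the most of both genes.

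Hoxb2, the group 2 neighbour of Hoxb1, which also acts in hindbrain segments, followed Hoxb1 over the 12 embryos. It was at 142.6, 227.8, 130.2, 179.2 and 106.5 in the females and at 151.2, 423.1, 182.3, 390.2, 377.5, 97.7 and 957.0 in the males, and its ratio to Hoxb1 stayed between 0.269 in male replicate 7 and 0.575 in female replicate 2. The lowest and the highest embryo were the same as for Hoxb1. Both genes were highest in the 4 males that stood apart. Within the other 8 embryos r was 0.74 (adjusted p = 0.172 over 19 relations, exact permutation test). In the order of embryos, Hoxb2 was the second most like Hoxb1 of 16631 genes with a mean of at least 10 (Spearman's rho of 0.93 over 12 embryos), after Ifitm1 at 0.951 and ahead of Krt18 and Pcdh19, both at 0.916, and Commd3 at 0.909. The separation of the 4 males from the other 8 embryos enters these ranks, and no ranking was made within the 8. The antisense RNA Hoxb3os covers 27.3% of Hoxb2 exon sequence, was at 131.6 ± 93.9 (SD, n = 12) and was also highest in male replicate 7, at 374.6. How much of the Hoxb2 value comes from Hoxb3os was not tested.

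Hoxa2, the other group 2 gene, which patterns the second branchial arch, was patchy. Of the females, replicate 5 had 32.5 normalized counts and the other 4 had 0, while the males had 28.1, 162.8, 46.5, 62.3, 26.6, 0 and 87.8. Male replicate 6 lay with those females at 0, and male replicates 1 and 5 lay below the highest female, so the sexes overlapped. Among the detected genes, Hoxb1 and Hoxb2 were higher in each of the 4 males that stood apart than in any other embryo, at 884.7 to 3555 against 212.1 to 502.3 and at 377.5 to 957.0 against 97.7 to 227.8. Of all 16455 detected genes, 0.833% lay above and 0.723% below the other 8 embryos in this way. Hoxa2 and Hoxd1 overlapped between the 4 and the 8.

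**Figure D2:**
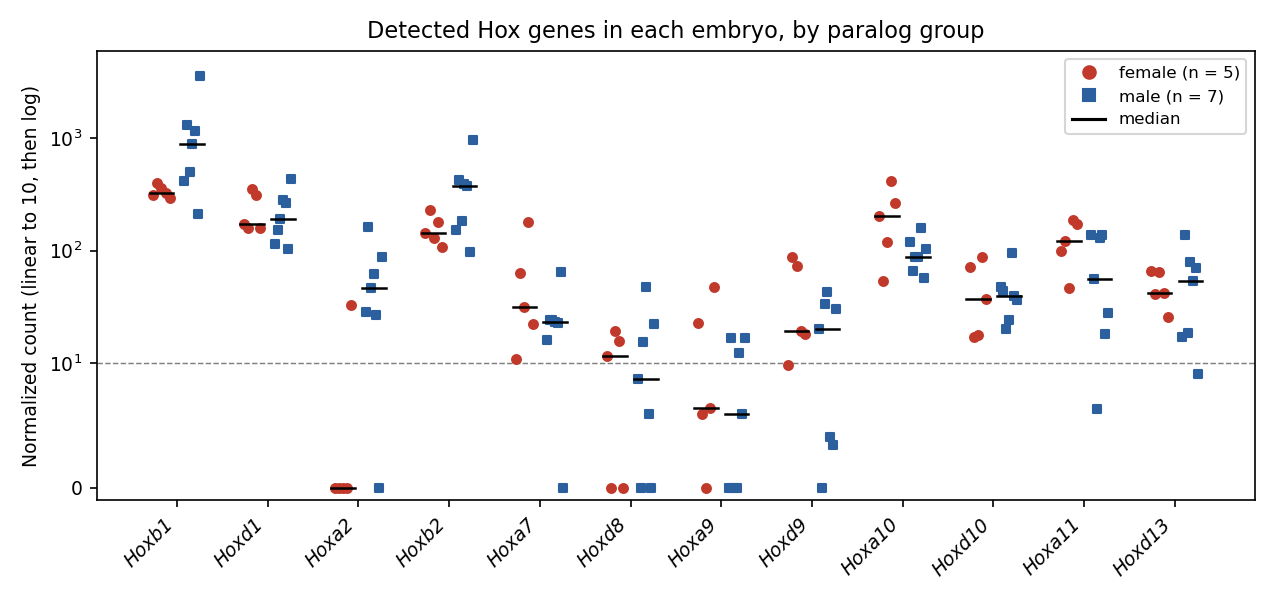
Normalized count of detected Hox genes in every embryo, ordered by paralog group; red circles are 5 females, blue squares 7 males, black bars medians, and the axis is linear up to 10 (dashed line) and logarithmic above. Male values of Hoxb1 run from 212.1 to 3555 around the narrow female range, and Hoxa2 is at 0 in 4 of 5 females.

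The middle of the clusters was almost empty. The 13 genes of groups 3 to 6 had means of at most 4.64 normalized counts, and 4 of them were at 0 in every embryo. Single embryos still held small amounts: Hoxa3 reached 41.4 and Hoxb5 29.7, both in male replicate 7, the embryo with the most Hoxb1. The mean of Hoxa3 was 3.66 from the values used here but 0.207 in the authors' deposited table, so its high value is uncertain. Together, groups 3 to 6 made up between 0 and 2.43% of the Hox counts of an embryo. Hoxb3, at 4.64, shares 52.9% of its exon sequence with the antisense RNA Hoxb3os, so that even this low value is uncertain.

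The genes of groups 7 to 9, which pattern the trunk later on, were detected in part, at low level. Hoxa7 was at 10.8, 62.7, 31.3, 178.8 and 22.4 in the females and at 16.0, 24.3, 24.1, 23.1, 22.5, 64.6 and 0 in the males. Its highest value was in female replicate 4 and its 0 in male replicate 7, where Hoxb1 was highest. Hoxd9 averaged 28.4 ± 27.4 (SD, n = 12), with 3.40 in male replicate 6, 0 in male replicate 2 and 87.5 in female replicate 2. Hoxd8 averaged 12.2 ± 13.7 (SD, n = 12) and reached 47.3 in male replicate 4, and Hoxa9 averaged 11.1 ± 13.8 (SD, n = 12) and reached 47.4 in female replicate 5. Both were at 0 in 4 embryos. The other 5 genes of these groups had means of at most 10.6.

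Of the 12 genes of groups 10 to 13, which act in the hindmost trunk, limbs and urogenital tract, 4 were detected, all in HoxA or HoxD. Hoxd10 had 70.8, 16.9, 17.8, 87.3 and 37.0 normalized counts in females and 47.1, 44.0, 19.9, 24.0, 94.1, 39.6 and 36.3 in males. Hoxd13, the last gene of its cluster, had 65.8, 40.8, 64.8, 42.0 and 25.8 in females and 17.1, 137.5, 18.3, 79.2, 53.2, 70.2 and 9.08 in males. Both were above 0 in every embryo and neither split the sexes. The transcript Gm28309, on the same strand, shares 5.7% of Hoxd10 exon sequence and averaged 3.29.

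Hoxa10 was the most abundant gene outside groups 1 and 2 by mean level. Females had 202.0, 53.8, 120.1, 419.4 and 263.2 normalized counts and males 119.3, 65.9, 87.4, 88.4, 157.3, 57.0 and 102.3. The 2 highest embryos were female replicates 4 and 5, and the lowest embryo was female as well, so the sexes overlapped. Hoxa11 had 99.7, 121.5, 46.3, 186.8 and 173.6 in females and 138.4, 56.2, 6.29, 128.0, 138.1, 17.9 and 27.9 in males. It was highest in the same female replicate 4 and fell under 10 in male replicate 3 alone. The antisense RNA Hoxa11os covers 35.0% of Hoxa11 exon sequence and was at 42.1 ± 24.6 (SD, n = 12), and the share of Hoxa11 counts that it adds was not tested.

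Because Hoxa10 and Hoxa11 are expressed by the maternal decidua, their levels were set beside 15 decidual genes, all of which were detected. Prl8a2, a decidual prolactin-family gene, ranged from 2397 to 41907 normalized counts, and Pgr, the progesterone receptor, from 149.0 to 521.3, and Hand2, a stromal factor under its control, from 34.0 to 194.6. The summed level of the list ran from 7681 to 27660 in females and from 11469 to 48462 in males. The highest sum was in male replicate 3, which had the lowest Hoxa11, 6.29, and 87.4 of Hoxa10. The correlations below use the mean of centred log2 values instead, in which every list gene weighs alike. By that level male replicate 3 stood at 0.21, below male replicate 1 at 0.55 with a sum of 15511. Of 8 endometrial epithelium genes 3 were detected, of which Foxa2 is also a gene of embryonic endoderm, and Sprr2f and Cdh16 were at 0 in all 12 embryos.

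Over all 12 embryos neither gene followed the decidual list past the threshold. Hoxa10 had Pearson's r of 0.41 and Spearman's rho of 0.43 (adjusted p = 0.373 and 0.641 over 4 relations, two-sided permutation tests), and r of 0.38 without the 2 embryos farthest from the median, female replicate 1 and male replicate 1. Hoxa11 had r of 0.25 and rho of 0.25 (adjusted p = 0.592 and 0.701, permutation tests), and r of 0.11 without the same 2. Within the 7 males, a split added after the values were seen, Hoxa10 had r of 0.91 and rho of 0.86 with the list (adjusted p = 0.0238 for r, exact permutation test). Hoxa11 had r of 0.37 in the males (adjusted p = 0.551, exact permutation test). Both were adjusted over the 4 relations within the males alone, which does not cover the tests over all 12 embryos or the choice of the split. No correlation is given for the 5 females, and the difference between the sexes in this relation was not tested. Female replicate 4 had the most Hoxa10 at a list level of -0.10, near the middle of the 12 embryos, and male replicate 6 had little Hoxa10 at the lowest list level of -0.67. Litters hold at most 3 embryos, so no value within a litter can be given. Of the 5 genes whose order over embryos was most like Hoxa10, 1 is a decidual list member, Tdo2 (rho of 0.874), beside Slc12a9 at 0.951, Tbc1d8 at 0.902, Sirt7 at 0.874 and Cldn3 at 0.867. Those most like Hoxa11 were Entpd6 at 0.909, Zdhhc3 at 0.853, Gm6345 at 0.85, Ncln at 0.846 and Dus3l at 0.832, none of them a list member. The maternal part of either signal was not measured.

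**Figure D3:**
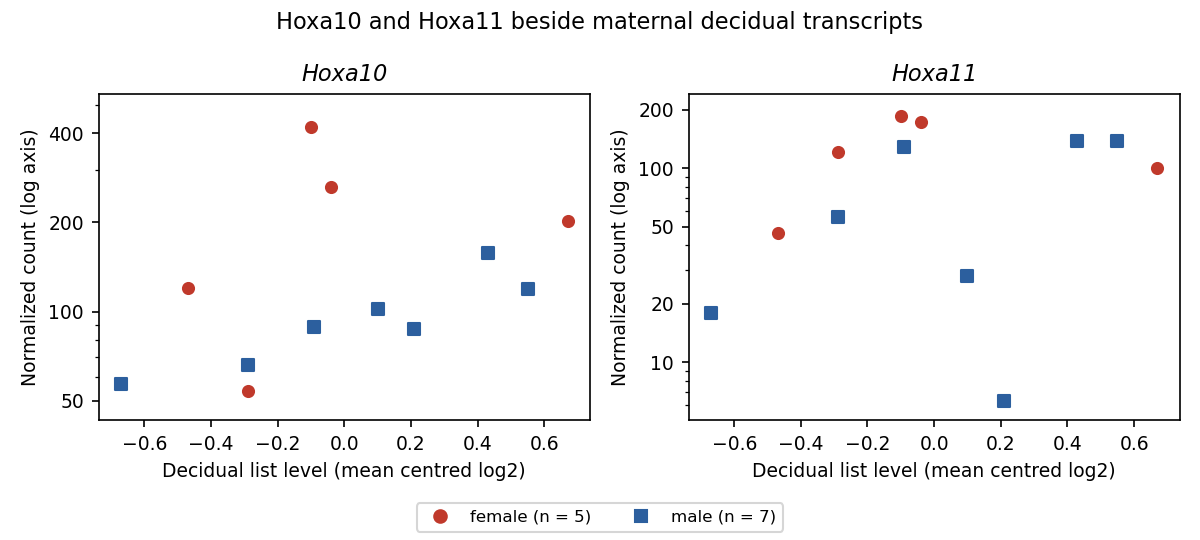
Hoxa10 (left) and Hoxa11 (right) normalized counts on a log axis against the level of 15 maternal decidual genes, the mean of their log2 values centred on the 12 embryos; red circles are females, blue squares males. The males of Hoxa10 rise along the axis (r of 0.91, n = 7, a split added after the values were seen), while female replicate 4 sits at the top near the middle of the axis.

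Per kilobase of the longest coding transcript, Hoxb1 was at 389.4 ± 449.0 normalized counts, Hoxb2 at 172.3 ± 148.6 and Hoxd1 at 120.7 ± 56.0 (SD, n = 12). Among the other genes described here, next came Hoxa10 at 56.4, Hoxa11 at 41.6, Hoxd10 at 24.5, then Hoxa2, Hoxd13 at 20.9, Hoxa7 at 19.9, Hoxd9 at 13.3, Hoxd8 at 4.61 and Hoxa9 at 3.45. Of the 11 neighbouring pairs in this order, 3 differed over the embryos: Hoxb1 lay above Hoxb2 in 12 of 12 embryos (adjusted p = 0.00537), Hoxd1 above Hoxa10 in 11 (adjusted p = 0.0107) and Hoxd9 above Hoxd8 in 10 (adjusted p = 0.0143, exact sign-flip permutation tests, two-sided). The other 8 pairs did not pass, among them Hoxb2 and Hoxd1. With the union of all exons as the length, Hoxd1 came before Hoxb2.

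Summed over all 39 genes, Hox transcripts were scarce, at 7.39 per 1000000 normalized counts in male replicate 6, a median of 13.9 and 64.2 in male replicate 7. Groups 1 and 2 made up 47.9% of the Hox counts in female replicate 4 and 94.0% in male replicate 7, with a median of 65.8%. Groups 10 to 13 made up 3.01% in male replicate 7 and 39.9% in female replicate 5, with a median of 19.8%. In counts, groups 10 to 13 summed to 182.6 in male replicate 7, within the range of the other embryos from 148.4 to 766.9, so that its low share came with a large sum of groups 1 and 2, 5714 against 412.8 to 2119 in the others.

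Genes upstream of Hox activation were read from a list of 16, of which 14 were detected. T, the T-box factor of the streak and axial mesoderm, was at 4344 to 6228 in the 8 other embryos and at 8336 to 14152 in the 4 males that stood apart and had the most Hoxb1. Wnt3a, a posterior signal, was at 427.4 to 745.4 and at 1305 to 2698, and Wnt5a at 1608 to 2415 and at 2708 to 3534. In the opposite direction went Fgf8, a growth factor of the streak, at 5895 to 7877 and 775.7 to 2512, Cyp26a1, which degrades retinoic acid, at 22402 to 26738 and 7979 to 17975, the retinoic acid receptor Rara at 1464 to 2339 and 1158 to 1353, and Wnt3 at 3286 to 5143 and 1973 to 3270. These 7 genes did not overlap between the 4 and the 8, beside 0.833% of all 16455 detected genes above and 0.723% below. Of the 7, 4 are among the 18 genes that set the 4 males apart, T, Wnt3, Wnt3a and Fgf8, so their separation was partly built in. Cdx1, Cdx2, Evx1, Gdf11, Rarg, Rarb and Aldh1a2, the enzyme that makes retinoic acid, overlapped, although Cdx2, a caudal homeobox factor that acts on Hox clusters and also marks extraembryonic ectoderm, was highest in male replicate 7 at 3918. Cdx4 missed the detection rule and Evx2 was at 0.

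Since the 4 males stood apart in the streak genes, correlations of Hoxb1 are given within the other 8 embryos. This choice was made after the values were seen. Across all 12 the separation of the 4 and the 8 enters every such value, and the 4 males are too few for a value of their own. The mean level of the streak list joins genes that moved in opposite directions, with 4 of 18 above and 7 below the other 8 in the 4 males. It is therefore no measure of the amount of streak. Within the 8, Hoxb1 followed this mean with r of 0.85 and rho of 0.86, which missed the threshold (adjusted p = 0.0914 over 19 relations, exact permutation test). Below it lay Wnt3 with r of 0.76 and Hoxb2 with 0.74 (adjusted p = 0.172 for each, exact permutation tests). Within the 8, T had r of 0.24, Wnt3a 0.14, Fgf8 -0.40 and Cyp26a1 -0.45, none past the threshold.

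**Figure D4:**
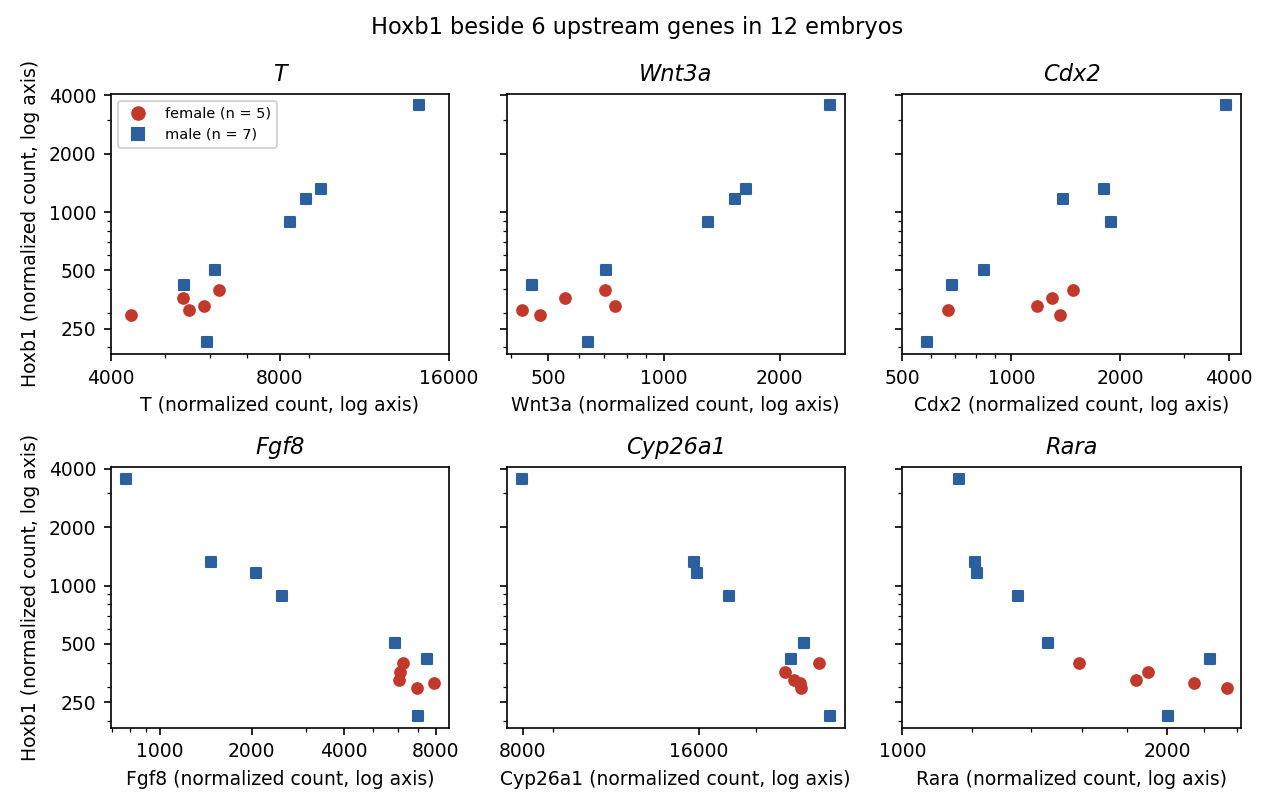
Hoxb1 against 6 upstream genes in 12 embryos, normalized counts on log axes; red circles are females, blue squares males. Male replicates 2, 4, 5 and 7 form the upper group in each panel, to the right for T and Wnt3a and to the left for Fgf8, Cyp26a1 and Rara, while in Cdx2 they overlap the others.

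The TALE homeodomain cofactors, with which HOX proteins bind DNA, were present. All 9 of 9 listed genes were detected, among them Pknox1 at 3091 ± 361.2, Pbx3 at 2619 ± 437.0, Meis3 at 1880 ± 196.6, Meis2 at 1467 ± 498.8, Pbx2 at 1298 ± 206.6, Pknox2 at 900.4 ± 371.5, Meis1 at 339.6 ± 190.6 and Pbx4 at 293.7 ± 43.8 (SD, n = 12). Meis1, Meis2, Pbx3 and Pknox2 were highest in male replicate 7, as Hoxb1 was. None of the 9 cofactors and none of the 14 detected upstream genes was called between the sexes.

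Of 17 noncoding RNAs of the clusters found in the table, 3 were detected. Hoxb3os was at 131.6, Haglr, which starts next to the Hoxd1 start and runs the other way, at 92.5 ± 42.0 (SD, n = 12), and Hoxa11os at 42.1, followed by Hotairm1 at 8.20 and Halr1 at 5.09. Hottip, Hotair and Hoxb5os were at 0 in all embryos, as were all 6 listed microRNA genes, whose short products such libraries are not made to capture. Each of the 3 detected RNAs lies beside or across a detected Hox gene.

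The clusters stood between neighbours that were mostly detected. Of the 3 nearest protein-coding genes on each side of each cluster, 21 of 24 were detected, beside 66.5% of all protein-coding genes. On the low-numbered side of HoxA, Skap2, an adaptor protein gene, was at 1610 ± 156.2, and beyond Hoxa13, Evx1, a homeobox gene of the streak, at 468.0 ± 109.0 (SD, n = 12). HoxC, which had no detected gene, lay between Smug1, a DNA repair gene, at 1891 ± 280.2, and Calcoco1 at 2409 ± 380.5 (SD, n = 12). HoxD lay between Mtx2, a mitochondrial import gene, at 13002 ± 1592 (SD, n = 12), and Evx2 at 0. HoxB had low neighbours on both sides, Skap1 at 53.0 ± 33.9 and Ttll6 at 8.25 ± 18.6 (SD, n = 12).

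**Figure D5:**
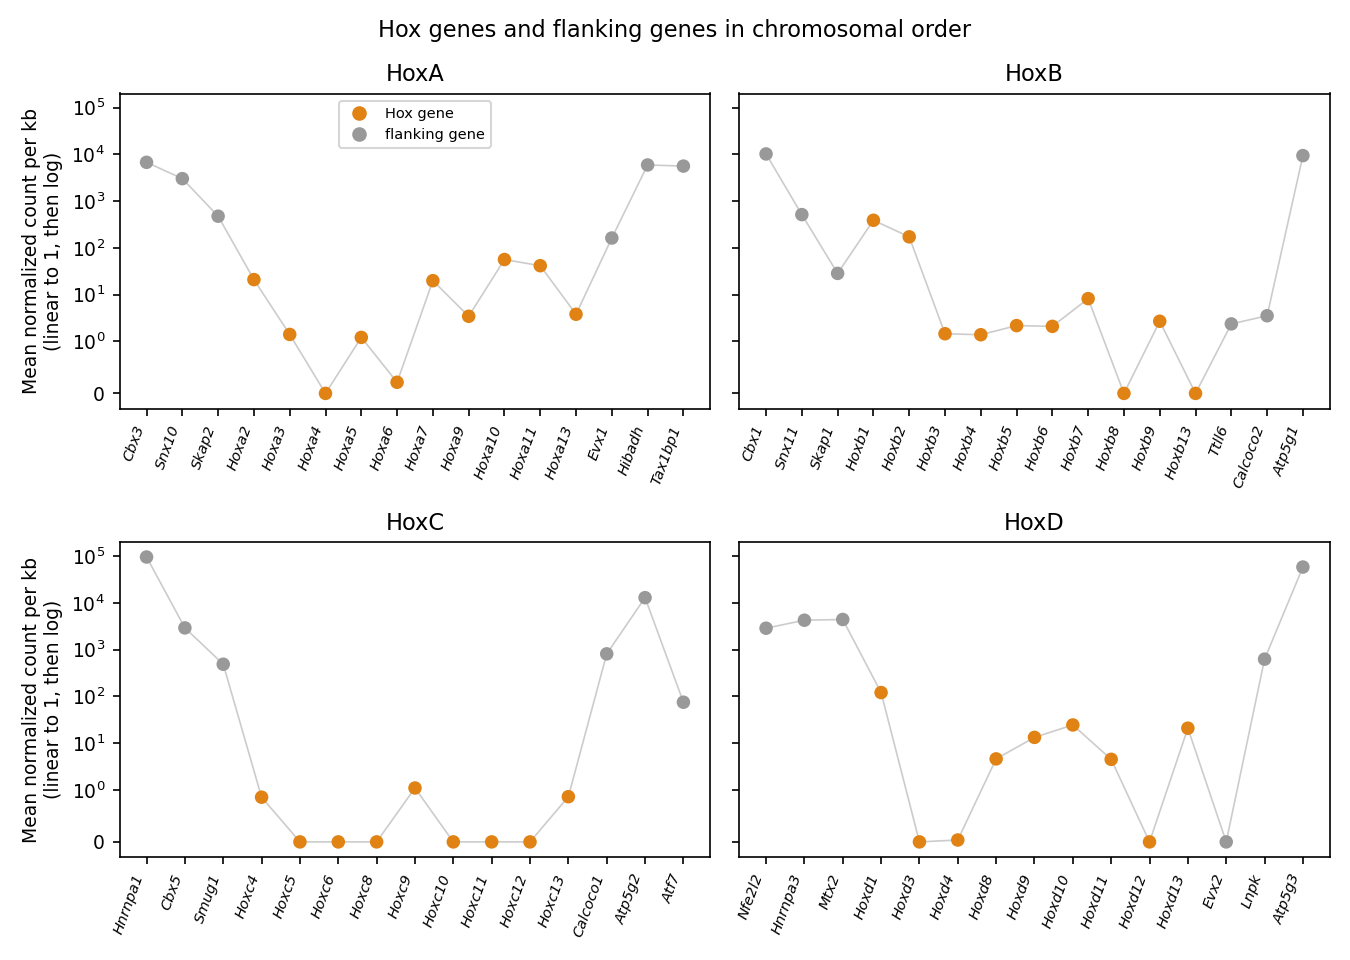
Mean normalized count per kilobase of transcript over 12 embryos for Hox genes (orange) and the 3 nearest protein-coding genes on each side (grey), in chromosomal order from the group 1 side to the group 13 side; the axis is linear up to 1 and logarithmic above. HoxA, HoxB and HoxD start higher at the low-numbered end, drop in the middle, and HoxA and HoxD rise again, while HoxC stays at or below 1.1 between high neighbours.

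Other homeobox genes of the same ANTP class were detected in 8 of 15 cases. Gbx2, a gene of the posterior epiblast and hindbrain border, was above the other 8 embryos in all 4 males that stood apart, and it reached 2012 in male replicate 7 from 94.8 in female replicate 5. The ParaHox gene Gsx1 fell short of the detection rule but split the embryos in the same way, at 64.6, 14.2, 64.5 and 72.7 in male replicates 2, 4, 5 and 7 and at 0 in the other 8. Gsx2 was not detected, and Pdx1, another ParaHox gene, was at 113.3 ± 66.3 (SD, n = 12).

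No Hox gene was called between the sexes. By limma, 0 of the 13 detected Hox genes passed an adjusted p of 0.05, beside 7 of 16455 genes tested (0.0425%), and no Hox gene had sexes that did not overlap, beside 127 of all tested genes. At an unadjusted p below 0.05 there were 2, beside 10.8% of all genes: Hoxa2 and Hoxb1. Females averaged 6.51 ± 14.6 counts of Hoxa2 (SD, n = 5), against 59.2 ± 53.6 for the males (SD, n = 7), a log2 difference of -3.99 (SE 1.26, adjusted p = 0.296 by limma). Its size depended on the count added before taking logs, at -6.16 with 0.1 and -1.95 with 10 in place of 1. On the deposited log2 values it was -0.22. The difference of Hoxb1 was -1.26 (SE 0.51, adjusted p = 0.393 by limma), and without the 4 males that stood apart it was -0.08 (adjusted p = 0.983). That of Hoxb2 was -0.92 (SE 0.47, adjusted p = 0.506) with and 0.13 without them (adjusted p = 0.975), while Hoxa2 no longer met the detection rule. Hoxa10 lay higher in females by 0.88 (SE 0.45, adjusted p = 0.503) and Hoxa11 by 1.25 (SE 0.73, adjusted p = 0.564), with 1.01 and 2.09 when the 4 males were left out (adjusted p = 0.823 and 0.787). The authors' deposited table also called no Hox gene among its 214 of 18821 (1.14%), with Hoxb1 nearest at an adjusted p of 0.102. With litter as a block, limma called 4 genes and no Hox gene.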

How the data were processed

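The submitters' processing notes name, in no stated order, DESeq2 1.34.0, Salmon 1.5.2, STAR 2.7.7a and cutadapt 4.1, and the mm10 build. Their settings are not given in these sources. The authors deposited log2-scale values per embryo, variance-stabilized as the values show, with a floor of 10.4141, and per gene a mean signal, a log2 fold change, and p-values with adjusted p-values, which served only as the authors' values. Each log2 value was turned back into a normalized count by the closed form of the transformation. The mean of the 12 results equalled the deposited mean for 25183 of 25451 genes (98.95%, relative tolerance 1e-06). In 525 genes it was above the deposited mean, among them Hoxa3 and Hoxc13, and there the values before that reduction were used. Whole counts were not recovered, so no count model was run. Floors of 3 fragments cover counting error only.

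Female and male embryos were set against each other in limma 3.58.1 (R 4.3.3). The model held sex alone, the input was log2(normalized count + 1), and the prior variance followed a trend on the mean. Genes with at least 10 normalized counts in at least 5 embryos were tested, with two-sided p-values, Benjamini-Hochberg adjustment over 16455 genes and a threshold of 0.05. Differences are female minus male on this log scale. For low genes with values of 0, their size depends on the count that is added. The fit was tested on simulated data. Correlations used the same log scale, with 100000 permutations or, for 7 or 8 embryos, all permutations. Neighbours in the order of levels were compared over all 4096 sign flips of 12 embryos.

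Lengths, coordinates and overlaps came from GENCODE M21 (GRCm38). Replicate numbers do not pair embryos: deviations of same-numbered embryos of opposite sex correlated between -0.134 and -0.011. Embryos of 1 litter correlated between -0.219 and 0.175. Detected Hox genes are described singly, with the 8 cofactor and upstream genes of highest level, the 5 noncoding RNAs of highest level, the nearest flanking gene on each side and the 5 genes most like Hoxb1, Hoxa10 or Hoxa11. Cofactors and upstream genes beyond those 8, and genes most like Hoxb1, were named after their values were seen. The results of 2 genes of these lists are not reported here. The members and lists were chosen with earlier results of these data known, and marker lists, upstream genes and the set of 4 males were read with values in view. Alternatives were other pseudocounts, filters, scalings and detection rules, a block, and leaving out embryos.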

Additional observations from a re-analysis of the deposited data

Results flagged for a closer look

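Among 24 groups formed by detected Hox genes and 2 sexes, 5 held an embryo far from the others by Dixon's criterion on untransformed counts. The criterion assumes a normal spread, which skewed counts with values of 0 do not have. No chance rate can therefore be set beside the 5, and the flags are a description. In 2 of them it was male replicate 7, with 3555 normalized counts of Hoxb1 and 957.0 of Hoxb2, against 1322.4 and 423.1 in the next male. The same embryo had the lowest Fgf8 and Cyp26a1 and the highest T of the 12, and the part of these in the Hox values was not tested. Among the males, Hoxa7 was highest at 64.6 in replicate 6 and Hoxd10 at 94.1 in replicate 5. Among the females, Hoxa2 was at 32.5 in replicate 5 and at 0 in the other 4, where any value above 0 meets the criterion.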

How the results depend on the processing

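No Hox gene was called between the sexes under any alternative run, and all adjusted p-values of Hox genes stayed at 0.227 or above. Genes called numbered 7, 4 with litter as a replicate block, 4 with the replicate number as a block over 10 embryos, 5 to 9 when 1 embryo was left out, and 0 of 15401 without the 4 males that stood apart (941 at an unadjusted p below 0.05). In that last fit fewer than 5 males remained, so genes present in males alone could not pass the filter. Its 0 is therefore partly set by the filter. The 13 detected Hox genes became 16 at 3 fragments in 5 embryos (2 of groups 3 to 6), 7 at 50 counts in 5 embryos, 26 at 10 counts in 1 embryo (7 of groups 3 to 6) and 5 at 10 counts in all 12, and 12 or 13 when 1 embryo was left out. Sex differences, none of them called, changed sign: that of Hoxb2 from -0.92 to 0.13 and of Hoxd10 to 0.15 without the 4 males, Hoxd10 to 0.64 without female replicates 2 and 3, Hoxd8 to 0.42 with the litter block and Hoxd10 to 0.00 on the deposited log2 values. When 1 embryo was left out they spanned -0.03 to 0.34 for Hoxd1, -0.97 to 0.11 for Hoxd8, -0.37 to 0.21 for Hoxd10 and -0.10 to 0.53 for Hoxd13. Hoxa9 was tested in only 7 of the 12 fits that left out 1 embryo.

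Over all 12 embryos, the 4 males included, Hoxb1 against the streak list gave r of -0.60 (adjusted p = 0.144, permutation test). The value was 0.03 without male replicates 2 and 7, 0.85 without the 4 males, and -0.73 to -0.34 when 1 embryo was left out. The list level is a mean of genes that moved in opposite directions between the 4 males and the others, so neither sign is read as more or less streak. Hoxa10 against the decidual list gave 0.27 to 0.59 and Hoxa11 0.05 to 0.50 when 1 embryo was left out. In the 7 males, a split added after the values were seen, Hoxa10 was at 0.91. The causes were not tested. Depth limits the genes at 0 to a bound of 3 fragments per library.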
